A study of Mus musculus with 6 samples.

Results

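The genes described here are the nuclear-encoded subunits of the mitochondrial respiratory chain and of ATP synthase. They were picked by a rule on symbols, proposed with earlier results of these data known. It took Ndufa, Ndufb, Ndufc, Ndufs or Ndufv followed directly by a number, Sdha to Sdhd, and symbols beginning with Uqcr, Cox4 to Cox8 or Atp5. Symbols holding -ps (named as pseudogenes) were left out. This gave 91 of the 55377 genes listed, of which 42 fell to complex I, 4 to complex II, 8 to complex III, 19 to complex IV and 18 to ATP synthase, also called complex V. Levels were measured by RNA-seq in primary cultures of mouse articular chondrocytes, the cells that make and maintain cartilage matrix. 3 libraries came from cells transfected with a control siRNA and 3 from cells transfected with an siRNA against Irf1, and RNA was taken 36 h after transfection in both groups. Irf1 encodes a transcription factor of the interferon response. The labels give no age, sex or strain and do not state whether each replicate was a culture or animal of its own. The p-values therefore rest on the spread among the 3 libraries of a group, which may be technical. The siRNA sequences were not used here.

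The respiratory chain passes electrons from NADH (through complex I) and succinate (through complex II) to ubiquinone, then through complex III and cytochrome c to complex IV, which reduces oxygen. Complexes I, III and IV pump protons out of the mitochondrial matrix, and ATP synthase lets them return through a rotating ring of c subunits, whose rotation drives ATP formation in the F1 head. The peripheral stalk, to which the Atp5pb product (subunit b) belongs, holds the head still while the ring turns. Articular chondrocytes live in tissue with little oxygen and are known for making much of their ATP by glycolysis.

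The targeted gene checked the labels first. Irf1 stood at 11.1, 12.6 and 12.2 CPM (counts scaled to a common library size, by the TMM method) in the control siRNA libraries and at 5.64, 5.09 and 6.02 CPM in the Irf1 siRNA libraries. The groups did not overlap, and the log2 fold change of Irf1 was -1.10 ± 0.108 (SE), with an adjusted p of 2.995e-06 in edgeR's quasi-likelihood test. About 46.6% of the control level was left.

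Libraries held 22349142 to 29282494 counts, and every Irf1 siRNA library was shallower than every control library, so depth and treatment cannot be told apart. The 91 genes took 0.613% to 0.653% of the counts in control libraries and 0.639% to 0.675% in Irf1 siRNA libraries. Chondrocyte markers were high in all 6 libraries, with 12 markers summing to 93890 to 123200 CPM in controls and 93260 to 122800 CPM with Irf1 siRNA, and 1 of the 12 (Hapln1) passed the test, as lower. Muscle markers, which matter because muscle has its own isoforms of several subunits, summed to 21.1 to 22.6 CPM in controls and 20.4 to 23.3 CPM with Irf1 siRNA, with Myh2 and Pvalb at 0 counts in all libraries. Of 8 macrophage markers, summing to 12.8 to 16.6 CPM and 18.1 to 18.6 CPM, Cd14 and Cd68 were higher and Lyz2, the third tested, had a log2 fold change of -0.69 (adjusted p = 0.0566, edgeR) without overlap. Csf1r and Ptprc had at most 15 counts in a library and lower means with Irf1 siRNA, and Adgre1 and Itgam were at 0 throughout. Fibroblast markers summed to 1686 to 1781 CPM and 1366 to 1545 CPM, with Col3a1 lower among 5 tested, and osteoblast markers to 128.6 to 151.4 CPM and 89.8 to 122 CPM, with none of 4 tested called. Endothelial markers summed to under 2.4 CPM in every library, and all 5 erythroid markers were at 0. These lists' part in the results below was not tested. In bulk RNA, fewer cells of a type and less RNA per cell cannot be told apart.

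1 control library was the lowest of the 6 for these genes. In control siRNA replicate 2 the tested respiratory genes lay at a median of -0.13 (log2) from their own mean over the 6 libraries, against -0.06 and -0.02 in the other controls and 0.12, 0.07 and 0.03 in the Irf1 siRNA libraries. All 3 control medians were thus below all 3 Irf1 siRNA medians, with control replicate 2 the lowest and Irf1 siRNA replicate 1 almost as far above 0. Among members with transcripts of 700 bases or more, control replicates 1 and 2 lay alike, at -0.05 each. Shorter members lay at -0.08 in control replicate 1 and -0.23 in control replicate 2. Calls that were lost without control replicate 2 are named beside their values.

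Most subunit transcripts did not pass the test, and those that passed it mostly rose. 81 of the 91 genes had enough counts to be tested. The other 10, with 0 to 8 counts in any library, were Ndufa11b, Ndufb4c, Ndufb11b, Ndufs6b, Cox6c2, Cox7a1, Cox7b2, Cox8b, Cox8c and a second identifier for Atp5o. Of the 81, 23 were higher with Irf1 siRNA (28.4%, where 10.4% of all 14683 tested genes were higher) and 5 were lower (6.17%, where 12% of all tested genes were lower), at an adjusted p under 0.05 over all tested genes. The median log2 fold change was 0.14 over the 81 and 0.00108 over all tested genes. The log2 fold change was above 0 for 66 and below 0 for 15 of the 81, against 7370 and 7313 of the 14683 tested genes. It lay within 0.2 of 0 for 42 of the 81 and for 8654 of the 14683, so members were not nearer to 0 than genes at large. The 2 groups of libraries did not overlap for 42 of the 81 (51.9%, against 38.1% of all tested genes).

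The rises were small and partly rested on 1 library. The 23 higher genes rose by 1.13 to 1.33 times, and none of them passed 1.5 times. Without control siRNA replicate 2, 11 genes were higher, and 13 of the original 23 calls were lost, 7 of them in complex I. Over all tested genes, higher calls also fell, from 1522 to 980 without that library and to 959 without Irf1 siRNA replicate 3. Of the 23, 9 stayed past the threshold in all 14 alternative analyses: Ndufb11, Sdhd, Uqcr10, Uqcr11, Uqcrq, Cox5a, Cox7b, Atp5e and Atp5md. Of the 5 lower genes, Atp5pb, Atp5l, Cox6a1 and Ndufa4l2 stayed past it in all 14, and Sdhc was lost in 6.

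**Figure D1:**
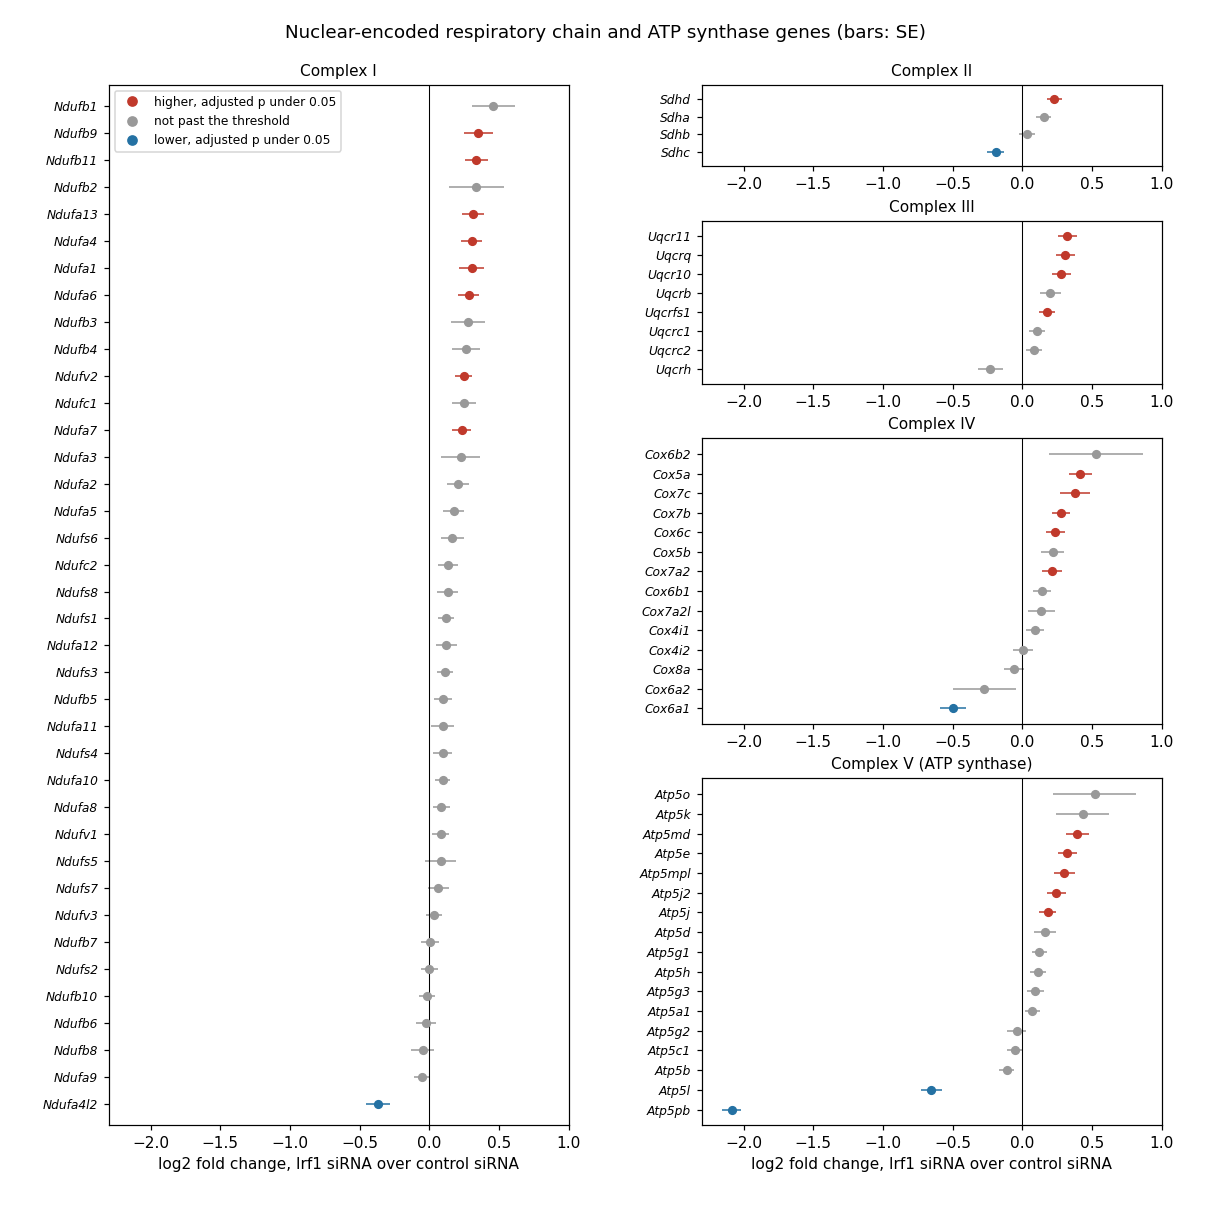
The log2 fold change of each tested gene (x axis, Irf1 siRNA over control siRNA; points are estimates and bars are SE) is drawn by complex, in red where higher and blue where lower at an adjusted p under 0.05. Most points sit slightly right of 0, 23 of them red, and Atp5pb alone lies near -2.

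The median change was above 0 in each complex. Median log2 fold changes were 0.13 in complex I, 0.09 in complex II, 0.19 in complex III, 0.18 in complex IV and 0.12 in ATP synthase, and each median was above 0 in all 14 alternatives. The higher and lower counts were 8 and 1 of 38 in complex I, 1 and 1 of 4 in complex II, 4 and 0 of 8 in complex III, 5 and 1 of 14 in complex IV, and 5 and 2 of 17 in ATP synthase, beside 10.4% higher and 12% lower over all tested genes. Without control replicate 2 the higher count was 2 in complex I, 3 in complexes III and IV each and 2 in ATP synthase, and complexes II and III had 0 and 1 lower. Without control replicate 1, higher calls were 3 in complex IV and 3 in ATP synthase, and without Irf1 siRNA replicates 1 and 2 in turn they were 2 and 3 in complex IV. ATP synthase had 3 without Irf1 siRNA replicate 1, and complex I had 13 without control replicate 3. Differences between complexes were not tested. When CPM were summed within each complex, complex I totalled 1783, 1729 and 1821 CPM in controls and 1977, 1875 and 1842 CPM with Irf1 siRNA, a 6.79% higher mean. Grouped by symbol, that sum holds Ndufa4l2, with means of 179.3 CPM in controls and 138.7 CPM with Irf1 siRNA. It also holds Ndufa4, known to work in complex IV, with means of 79.4 and 98 CPM. Complexes II, III and IV had sums 7.38%, 10.1% and 8% higher, and in these 4 complexes the groups did not overlap. The ATP synthase sum went the other way, at 2554, 2566 and 2627 CPM in controls and 2582, 2492 and 2447 CPM with Irf1 siRNA, with overlapping groups and a difference of -2.94%. Without Atp5pb that sum was 2.61% higher, again with overlap, so the sign of the ATP synthase sum rested on this 1 transcript.

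Atp5pb (ENSMUSG00000000563.18), subunit b of the peripheral stalk, stood far from every other gene of the set. It had 174.5, 176.4 and 192.5 CPM in controls (4891, 4976 and 5701 counts) and 42.4, 45.7 and 39.8 CPM with Irf1 siRNA (940, 1257 and 931 counts). The lowest control was thus far above the highest Irf1 siRNA library. Atp5pb fell 4.25-fold, by 2.09 on the log2 scale (95% interval -2.22 to -1.96, adjusted p = 3.278e-11, edgeR's quasi-likelihood test), to 23.5% of the control mean. By p it ranked 1 among all 14683 tested genes, ahead of Irf1 itself at rank 143.

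The fall of Atp5pb also stood against its own complex. It supplied 6.83%, 6.88% and 7.33% of all ATP synthase subunit CPM in controls and 1.64%, 1.83% and 1.63% with Irf1 siRNA. Its log2 CPM minus the mean log2 CPM of the other 16 tested subunits was 1.10, 1.25 and 1.16 in controls and -1.09, -0.98 and -1.11 with Irf1 siRNA. The difference was positive in every control and negative in every Irf1 siRNA library (SD 0.0739 and 0.0722, n = 3 each). A fit relative to the other subunits gave a change of -2.23, larger than that spread between libraries. The SE of that fit was 0.102, but the fit counts as independent a shift common to all genes of a library. An exact two-sided permutation test of the difference gave p = 0.1, the smallest that 3 against 3 libraries can give. Any value whose groups do not overlap gives this p. Atp5pb was set apart with earlier results of these data known, so the test is no independent support. The Atp5h product (subunit d) and the Atp5j product (subunit F6) sit beside subunit b in the stalk. The ratio of Atp5pb to Atp5h CPM was 1.93 ± 0.0939 (SD, n = 3) in controls and 0.419 ± 0.0249 (SD, n = 3) with Irf1 siRNA, and the ratio to Atp5j CPM was 1.91 ± 0.0158 and 0.397 ± 0.0103 (SD, n = 3 each). These shares, differences and ratios compare libraries and are not corrected for transcript length.

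Atp5pb has a processed pseudogene, Atp5pb-ps, with which it can share reads. The pseudogene held 30, 30 and 38 counts in controls and 6, 11 and 10 with Irf1 siRNA and was called lower (log2 fold change -1.62, adjusted p = 0.001356, edgeR). Its counts were under 1% of those of Atp5pb in controls and moved in the same direction.

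**Figure D2:**
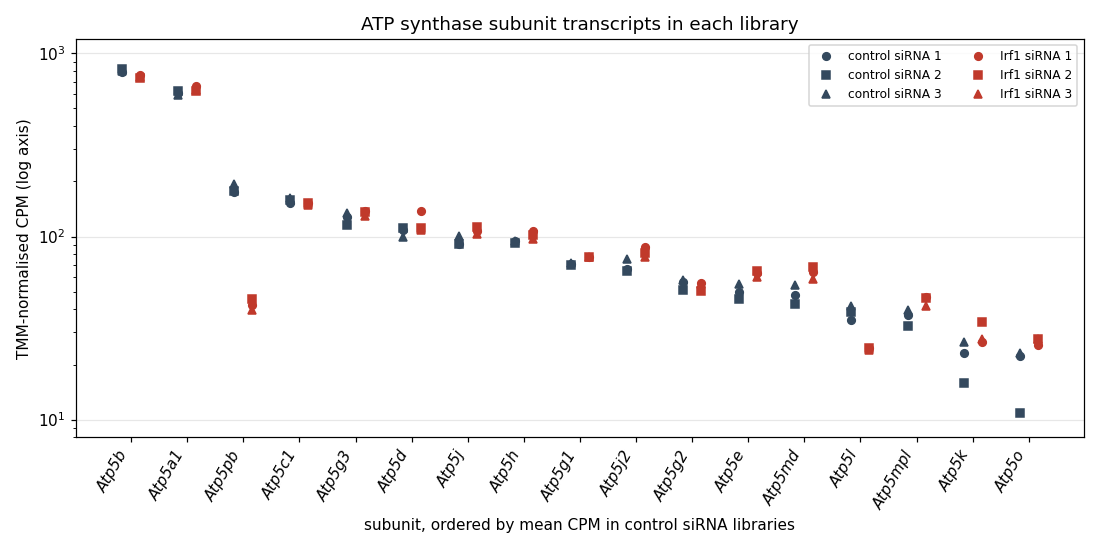
TMM-normalised CPM of the 17 tested ATP synthase subunits (log axis) is drawn for each library, with controls in grey and Irf1 siRNA in red and marker shapes for replicates 1 to 3. Atp5pb drops from 174.5 to 192.5 CPM down to 39.8 to 45.7 CPM, Atp5l drops less, and control replicate 2 lies low for Atp5k and Atp5o.

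None of the other peripheral stalk genes was lower. Atp5j rose 1.13-fold, from 91.6, 91.3 and 101.1 CPM to 107.3, 112.1 and 102.8 CPM (a log2 fold change of 0.18 ± 0.0608, SE; adjusted p = 0.042, edgeR), and this call was kept in 6 of 14 alternatives, not without control replicate 2. Atp5h had 94.7, 92.3 and 94.9 CPM in controls and 106.6, 102.3 and 96.7 CPM with Irf1 siRNA, without overlap but not past the threshold (log2 fold change 0.12, adjusted p = 0.163, edgeR). Atp5o, encoding the subunit (OSCP) that joins the stalk to the head, had 22.3, 10.9 and 23.2 CPM in controls and 25.6, 27.6 and 27.6 CPM with Irf1 siRNA, with a log2 fold change of 0.52 that did not pass (SE 0.297, adjusted p = 0.296, edgeR). Its spread came from control replicate 2, the same library that was low for the set as a whole, and without it the change was 0.25 (adjusted p = 0.0594).

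In the F1 head and central stalk, the catalytic β and the α subunit genes had the highest levels of all tested members per length. Lengths were those of principal transcripts, the ones ranked best for a gene in the annotation. Per kilobase of transcript, Atp5b had 421.2 and Atp5a1 245.6 control CPM, first and second in the set by the longest principal transcript, followed by Cox4i1 at 228.8. With the shortest principal transcript Uqcrq took the third place, at 244.5 CPM per kilobase, next to Atp5a1. Neither head gene passed the test: Atp5b had a log2 fold change of -0.11 (adjusted p = 0.155, edgeR) and Atp5a1 one of 0.07 (adjusted p = 0.378), although Atp5b passed with the length and GC correction and the block (adjusted p = 0.0463). Both had groups that did not overlap, with Atp5b at 789.9, 825.7 and 805.5 CPM against 766.2, 734.4 and 739.8 CPM, and Atp5a1 at 606.4, 622.7 and 591.4 CPM against 659.8, 623.8 and 630.1 CPM. Atp5c1 (γ, the rotor shaft) and Atp5d (δ) had log2 fold changes of -0.05 and 0.16, with overlap. Atp5e (ε) was the one head and central stalk gene called. It rose from 49.9, 45.7 and 54.7 CPM to 63.3, 64.8 and 60.1 CPM (a log2 fold change of 0.32 ± 0.069, SE; adjusted p = 0.003206, edgeR), and no Irf1 siRNA library was as low as the highest control.

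The 3 c ring genes encode the same mature peptide behind different import sequences, and none of them was called. Atp5g3 had a log2 fold change of 0.09, while Atp5g1 and Atp5g2 had 0.12 and -0.04. Atp5g1 was very even, at 70.8, 70.1 and 71.7 CPM in controls and 77.2, 77.3 and 77.1 CPM with Irf1 siRNA, without overlap (adjusted p = 0.11, edgeR). The estimate for Atp5g2 changed sign when Irf1 siRNA replicate 2 was left out.

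The small membrane subunits split. Atp5l (subunit g, which with subunit e shapes the dimer of the enzyme) was the second lower gene of the complex, at 34.9, 38.5 and 41.8 CPM in controls and 24.5, 24.7 and 24 CPM with Irf1 siRNA. The log2 fold change was -0.65 ± 0.0755 (SE), with an adjusted p of 1.57e-05 (edgeR), and 63.6% of the control mean was left, with the 3 Irf1 siRNA libraries closely together. Atp5md, Atp5mpl and Atp5j2 rose by 0.39, 0.30 and 0.24 on the same scale, but Atp5mpl lost its call without control replicate 2, and Atp5j2 lost it without control replicate 1, control replicate 2 or Irf1 siRNA replicate 1. Atp5md (the DAPIT subunit) had the smallest p of the higher calls in ATP synthase, at 47.8, 42.8 and 54.3 CPM against 63.7, 67.9 and 58.8 CPM (SE 0.0813, adjusted p = 0.002696, edgeR). Atp5k (subunit e), the partner of subunit g, had a log2 fold change of 0.43 that did not pass (adjusted p = 0.156), with control replicate 2 at 15.9 CPM against 23.1 and 26.6 CPM in the other controls. Without that library it had 0.25 (adjusted p = 0.146), and it passed without control replicate 3 (0.60, adjusted p = 0.0434).

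Of the members called in the other complexes, 3 were lower: Ndufa4l2, Sdhc and Cox6a1. Cox6a1 encodes the widely expressed form of a small complex IV subunit. It had 117.4, 119.4 and 110.7 CPM in controls and 97.3, 70.7 and 78.4 CPM with Irf1 siRNA, with a log2 fold change of -0.50 ± 0.0952 (SE) and an adjusted p of 0.00287 (edgeR). All Irf1 siRNA libraries lay below all controls, with replicate 1 the nearest to them. Ndufa4l2, a paralogue of Ndufa4 known to be induced by hypoxia-inducible factor, had 183.1, 190.2 and 164.4 CPM in controls and 154.4, 119.2 and 142.7 CPM with Irf1 siRNA (log2 fold change -0.37, SE 0.0855, adjusted p = 0.007154). Sdhc, a membrane anchor of complex II, had the smallest fall, from 59.6, 56.6 and 54.1 CPM to 51.6, 47.8 and 49.8 CPM (log2 fold change -0.19, adjusted p = 0.0347, edgeR). That call was lost with upper-quartile scaling, with DESeq2 and in 4 of the analyses that left out a library, control replicate 2 among them.

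**Figure D3:**
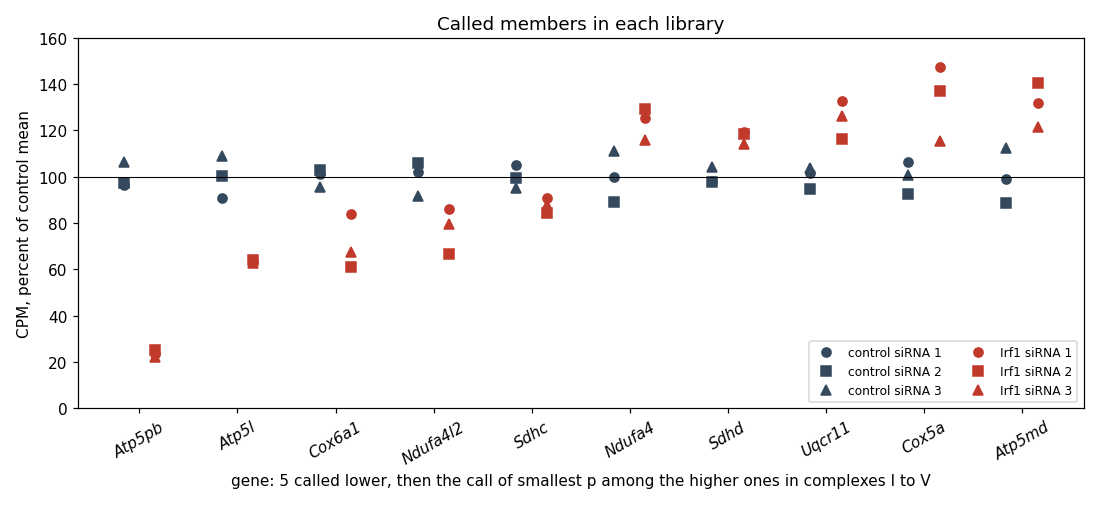
CPM as a percentage of the gene's control mean (y axis) is drawn for each library for the 5 lower genes and, for each complex, the higher gene with the smallest p. Atp5pb sits between 20 and 26 percent with Irf1 siRNA, Cox6a1 and Ndufa4l2 are spread more widely below the controls, and the rises stay below 150 percent.

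In complex I, the 7 tested core subunits, which carry the redox centres, moved little. Ndufv2, a core subunit with an iron-sulfur cluster, was the one called, at 63, 60.8 and 66.6 CPM in controls and 75.8, 79.4 and 70.7 CPM with Irf1 siRNA (log2 fold change 0.25, adjusted p = 0.009288, edgeR). The other 31 tested genes of the Nduf families, mostly accessory subunits, held 7 higher and 1 lower calls and a median log2 fold change of 0.17, against 0.11 for the core. Ndufa4, which is named for complex I but is known to work in complex IV, had the smallest p of the higher calls, rising from 79.3, 70.7 and 88.1 CPM to 99.5, 102.5 and 91.9 CPM (log2 fold change 0.30, adjusted p = 0.008021). Ndufb11, an accessory subunit of the membrane arm, rose from 46.2, 44.2 and 40.6 CPM to 63.1, 50 and 52.4 CPM (log2 fold change 0.34, adjusted p = 0.008653, edgeR). Ndufa13, an accessory subunit also known as GRIM-19, rose by 0.31 (adjusted p = 0.009991). Ndufb11 was the one higher call of complex I that was kept without control replicate 2, while Ndufa4, Ndufv2, Ndufa13, Ndufa6, Ndufa7, Ndufb9 and Ndufa1 were lost. Those last 4 accessory subunits had log2 fold changes of 0.23 to 0.35, and without that library Ndufb9 had 0.23 and Ndufa1 0.20. Ndufb1 had the largest change short of the threshold (log2 fold change 0.46, SE 0.155, adjusted p = 0.0706, edgeR), with control replicate 2 again the lowest, at 21.5 CPM. Without that library the change was smaller and passed (0.29, adjusted p = 0.03998), and it also passed without control replicate 3, with DESeq2 (adjusted p = 0.002506) and without the filter, while the adjusted p reached 0.349 with the length and GC correction and the block.

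In complex II, Sdhd, the other membrane anchor, rose as Sdhc fell. Sdhd had 93.5, 93.4 and 99.4 CPM in controls and 113.9, 113 and 108.9 CPM with Irf1 siRNA (log2 fold change 0.23, SE 0.0555, adjusted p = 0.007495, edgeR), without overlap. The catalytic flavoprotein gene Sdha had a log2 fold change of 0.15 (adjusted p = 0.0537) and passed as higher in 6 of 14 alternatives, and Sdhb, the iron-sulfur subunit, had 0.03.

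Complex III held 4 higher calls of 8. The small subunits Uqcr11, Uqcrq and Uqcr10 rose by 0.32, 0.31 and 0.28 on the log2 scale, and all 3 calls were kept in all 14 alternatives. Uqcr11 had 37.9, 35.4 and 38.8 CPM in controls and 49.5, 43.5 and 47.2 CPM with Irf1 siRNA (SE 0.068, adjusted p = 0.003046, edgeR), and Uqcrq had 101, 100.3 and 95.8 CPM against 136.3, 115.2 and 116.4 CPM (SE 0.0672, adjusted p = 0.003818). Neither gene had any overlap between the groups. Uqcrfs1, the Rieske iron-sulfur protein that takes electrons from ubiquinol, rose by 0.18 (adjusted p = 0.0439), a call kept in 6 of 14 alternatives and not without control replicate 2, while the 2 large core proteins Uqcrc1 and Uqcrc2 had 0.10 and 0.08 and were not called. Uqcrh, the acidic hinge protein, was the one gene of this complex with a log2 fold change below 0 (-0.23, adjusted p = 0.0822, edgeR), with overlap. It passed the threshold as lower in 5 of 14 alternatives, among them without control replicate 2 (-0.33, adjusted p = 0.008425) and with the length and GC correction (-0.30, adjusted p = 0.005648), and the adjusted p was at most 0.309 over all 14.

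In complex IV, Cox5a rose most among the called genes of the whole set. This subunit of the matrix side had 71, 61.8 and 67.1 CPM in controls and 98.3, 91.5 and 77 CPM with Irf1 siRNA (log2 fold change 0.42, SE 0.0817, adjusted p = 0.002197, edgeR). Irf1 siRNA replicate 3 was the nearest to the controls. Cox7b rose from 69.2, 63.5 and 73.5 CPM to 81.4, 88.2 and 80.7 CPM (log2 fold change 0.28, adjusted p = 0.00567), and Cox6c, Cox7c and Cox7a2, all small membrane subunits, rose by 0.24, 0.38 and 0.21. Cox6c lost its call in 3 and Cox7a2 in 5 of the 14 alternatives, both among them without control replicate 2, control replicate 1 or Irf1 siRNA replicate 1, and Cox7a2 also without Irf1 siRNA replicate 2 or with the length and GC correction. Cox7c lost its call without any 1 of the 3 Irf1 siRNA libraries. Cox7c was among the most variable, since control replicate 2 stood at 39.3 CPM against 53 and 56.1 CPM in the other controls, and without that library its log2 fold change was 0.24. The largest uncalled estimate, 0.53 for the testis form Cox6b2, came from under 1.5 CPM in every library and was 0.22 without Irf1 siRNA replicate 3.

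Several subunits have paired isoforms. Cox4i2, a form known from lung and low oxygen, has a shortest transcript of like length to that of Cox4i1 (727 and 745 bases) and stood at 20.4% ± 0.584 of its CPM in controls and 19.3% ± 1.57 with Irf1 siRNA (SD, n = 3 each). Neither form was called, and the estimate for Cox4i2 was so near 0 that its sign depended on the analysis. The muscle forms were nearly silent: Cox6a2 had 1.86 to 2.21 CPM in controls and 1.27 to 2.26 CPM with Irf1 siRNA, and Cox7a1 and Cox8b had at most 8 and 1 counts in a library. Cox6b1 and Cox8a, the common forms, and Cox7a2l, which helps join complexes III and IV, had log2 fold changes of 0.14, -0.06 and 0.14 and were not called, and the called Cox7a2 had 0.21. The ratio of Ndufa4l2 to Ndufa4 CPM, not corrected for length, was 2.31, 2.69 and 1.87 in controls and 1.55, 1.16 and 1.55 with Irf1 siRNA. The ratio groups did not overlap, since the 2 genes were called in opposite directions.

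The higher calls were more frequent among short transcripts. Of 39 members with a shortest principal transcript under 700 bases, 15 were higher (38.5%), and of 42 longer ones 8 were (19%). Among all tested genes of at least 5 CPM, 99 of 424 short ones (23.4%) and 11.2% of longer ones were higher. Across the 81 members, which share libraries and depth, Spearman's rho between log2 fold change and length was -0.41, and across 10449 tested genes of at least 5 CPM it was -0.08. In control replicate 2, short members lay at a median of -0.23 and longer ones at -0.05 from their means over the 6 libraries, and all short genes of the table at -0.11. Longer members also lay below 0 in all 3 controls and above 0 in all 3 Irf1 siRNA libraries. With a correction for length and GC content, 26 members were higher and 7 lower, while over all genes higher calls went from 1522 to 2148 and lower calls from 1767 to 2243. That correction used the longest principal transcript of a gene, while the split and the correlation used the shortest. Atp5md (2733 and 352 bases) and Uqcrq (1521 and 405 bases) were thus short in the split but corrected as long. Under that correction the log2 fold changes of Ndufa7, Uqcr10, Uqcr11 and Atp5e were 0.14, 0.16, 0.17 and 0.20, against 0.23, 0.28, 0.32 and 0.32 without it. They are named because they were the called members whose estimates it changed by the largest factors.

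**Figure D4:**
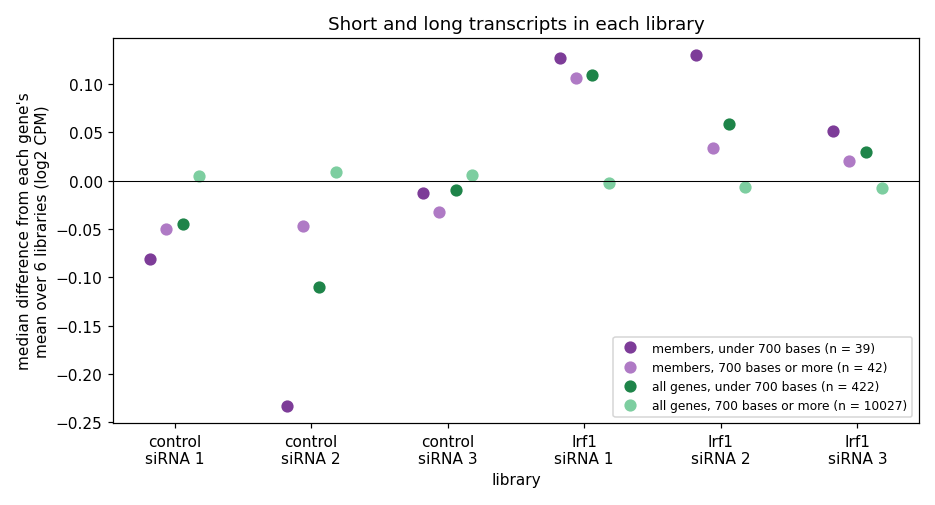
For each library, points give the median difference (log2 CPM) of 4 gene groups from each gene's mean over the 6 libraries: members and all genes of at least 5 CPM, split at a transcript length of 700 bases. Short members lie at -0.23 in control replicate 2, while all long genes stay within 0.01 of 0 in every library.

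The 3′ untranslated regions (3′ UTRs) of the members were searched on the transcript strand for 4 words of 7 bases: CTGATCA with the word ACTGATC that overlaps it, and CTATCTA with the word GCTATCT that overlaps it. An earlier look at these same libraries had picked the words because genes holding them were lower, so their counts describe that choice and are no independent support. The sites below are shown because Atp5pb holds 2 of them and Atp5l 1, and because Ndufv2 and Cox7b hold the same word as Atp5l and rose. Each is printed 5′ to 3′ on the minus strand of GRCm38 for the first 4 and on the plus strand for Cox7b, with the words in capitals. The first Atp5pb site runs over 2 overlapping words.
Atp5pb, chr3:105942894-105942919: ttctgtattGCTATCTAttgaaataa
Atp5pb, chr3:105942799-105942823: cggagttatCTGATCAtaatttgaa
Atp5l, chr9:44913286-44913310: aacaggactGCTATCTgaataaaat
Ndufv2, chr17:66079014-66079038: tttatgtttGCTATCTcattctgta
Cox7b, chrX:106022430-106022450: gaaataaagGCTATCTgttaa

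Words stood in the 3′ UTR of 9 of the 80 tested members with an annotated 3′ UTR (11.3%) and of 2452 of the 12734 such genes in the whole table (19.3%). Of the 9, Atp5pb and Atp5l were lower, Ndufv2 and Cox7b were higher, and Ndufa9, Sdha, Uqcrh, Atp5b and Atp5g1 were not called. Their median log2 fold change was -0.05, against 0.14 for the 71 without a word, of which 21 were higher and 3 lower. Over all tested genes 686 of the 2452 with a word were lower (28%) and 1008 of 10282 without one (9.8%). Atp5pb was the one member with more than 1 site. The lower genes Cox6a1, Ndufa4l2 and Sdhc held no word in the 3′ UTR.

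Promoters, taken as 250 bases before to 50 after the start in RefSeq (GRCm38.p6), were found for 70 of the 91 genes. They were matched by Ensembl identifier, or else by symbol or synonym. The 10-base core of the NRF1 site, a palindrome known from promoters of respiratory genes and so read alike on both strands, was in 5 of the 70 (7.14%: Ndufa11, Uqcrc1, Cox6a1, Atp5g2 and Atp5k) and in 1.07% of 27025 genes in the table. That table was not limited to genes tested here, whereas 66 of the 70 were tested, so the 2 shares have unlike bases. Cox6a1, which was lower, was the one called gene among the 5. Its promoter is printed as the example, on the minus strand, with the core in capitals.
Cox6a1, chr5:115348909-115349208: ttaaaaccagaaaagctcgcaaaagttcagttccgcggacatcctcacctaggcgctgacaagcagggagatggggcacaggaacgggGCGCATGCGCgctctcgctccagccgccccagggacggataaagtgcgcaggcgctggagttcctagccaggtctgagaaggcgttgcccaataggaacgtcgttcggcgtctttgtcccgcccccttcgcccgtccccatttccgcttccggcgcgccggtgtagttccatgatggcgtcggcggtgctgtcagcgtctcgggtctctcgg

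An interferon regulatory factor (IRF) element, searched on both strands, was in the promoters of 2 of the 70 genes (2.86%: Ndufa9 and Ndufs3) and of 3.99% of all genes in the table. Neither gene was called. A match describes the letters in this window and does not show a bound site, and a missing match says nothing of the factor.

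Among the genes that build, regulate and feed the chain, calls went in both directions, and their counts stand beside 10.4% higher and 12% lower over all tested genes. Of 16 tested complex I assembly factors, Foxred1 and Tmem126a were higher (log2 fold changes 0.24 and 0.18, adjusted p = 0.0211 and 0.04997, edgeR). Tmem126a thus lay barely under the threshold. Nubpl, which delivers iron-sulfur clusters to complex I, was lower (-0.35, adjusted p = 0.024, edgeR). Of 23 tested complex IV assembly factors, Higd2a and Cox14 were higher (0.36 and 0.28), and Cmc1 and Cox15 were lower. Cmc1, which helps Cox1 mature, had the largest change on these lists, from a mean of 8.86 to 4.62 CPM (a log2 fold change of -0.94 ± 0.126, SE; adjusted p = 6.5e-05, edgeR). Cox15, needed for heme a synthesis, had -0.24. Of 6 ATP synthase assembly factors, Atpaf2, a chaperone of the F1 head, was higher (0.25) and Tmem242 was lower (-0.31, adjusted p = 0.005748). None of the 4 complex II and 6 complex III assembly factors was called.

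Of 13 regulators of mitochondrial biogenesis, the nuclear receptor Esrra was higher (0.34, adjusted p = 0.01004, edgeR), and Gabpb1, a subunit of the factor NRF-2, and Tfb1m, a mitochondrial rRNA methyltransferase, were lower (-0.25 and -0.32). Of the tricarboxylic acid cycle enzymes reported here, Idh3b and Dld were higher (0.28 and 0.21) and Dlst was lower. Dlst, of the 2-oxoglutarate dehydrogenase complex, went from a mean of 152.2 to 120.6 CPM (log2 fold change -0.34, adjusted p = 0.000298, edgeR). The 6 carriers of ATP, phosphate and small solutes, and Ndufab1, Cyc1 and Cycs, which belong to the chain by function but not by the symbol rule, held no call. Mitochondrially encoded subunits were not analysed here.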

How the data were processed

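Each library has a table, deposited by the authors, of unnormalised counts for genes named by symbol and Ensembl identifier. Per the submitters' processing notes, the tools were Trimmomatic 0.39, FastQC and STAR and the build was GRCm39 (mm39); libraries were made with a stranded poly(A) kit, per the labels' protocols. The counting tool, annotation and strand setting were not given in the sources used here, so antisense, overlapping or near-identical genes may share reads. The members, lists and alternatives were chosen with earlier results of these data known.

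Genes were kept with filterByExpr (14683 of 55377), scaled by TMM and tested in edgeR 4.0.16 (R 4.3.3) with the robust quasi-likelihood test, Irf1 siRNA against control siRNA, 3 libraries each. P-values were adjusted by Benjamini and Hochberg over all tested genes, with a threshold of 0.05. The script was tested on simulated data. SE is the absolute log2 fold change over the root of the F statistic. Total counts were 22349142 to 29282494. No library was a copy of another: within groups, chi-square per degree of freedom was 5.35 to 15.2. The alternatives were RLE and upper-quartile scaling, DESeq2 1.42.0, 2 other filters, a replicate block, a correction for length and GC content, that correction with the block, and leaving out each library. Atp5pb was also fitted relative to the other ATP synthase subunits, by an offset. That fit's p is not given, because the offset adds a shift common to all genes of a library that the fit counts as independent. Its SE has the same limit.

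Lengths, GC content and 3′ UTRs came from GENCODE mouse release M21 (GRCm38, not the authors' build), matched by identifier for 99.8% of tested genes and all members. Longest and shortest transcripts were taken among the best-ranked principal (APPRIS) transcripts of a gene, or among all its transcripts where it had none. That release lists Ndufa11b, Ndufb4c, Ndufs6b and Cox6c2 as processed pseudogenes and the Ndufb1 identifier as noncoding. Promoters came from RefSeq (GRCm38.p6).

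Genes named are Irf1, every called member (full values for up to 4 per complex, by adjusted p), every ATP synthase member, the isoform pairs, the top 3 members by level per length, the largest uncalled change per complex and up to 3 called genes per list. Other genes named were chosen after their values were seen. Not every called gene of the lists is reported here.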

Additional observations from a re-analysis of the deposited data

How the results depend on the processing

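Atp5pb kept its direction and its call in all 14 alternatives, with a log2 fold change of -2.14 to -2.04 when single libraries were left out and a change relative to the other subunits of -2.27 to -2.19. The number of higher members ranged from 11 (without control siRNA replicate 2) to 30 (without control siRNA replicate 3) when single libraries were left out, and that of lower members from 4 to 5. With the length and GC correction and the replicate block together, 8 members were lower and 30 higher. Replicate numbers did not clearly pair the libraries: same-numbered libraries' deviations correlated at 0.41, -0.15 and 0.08. Control replicate 3 correlated best with Irf1 siRNA replicate 2, at 0.49. The deviations were taken from the mean of the 3 libraries of a group, so these correlations depend on each other. Whether libraries shared a batch, under the same or other numbers, was not tested. The replicate block alone gave 28 higher and 6 lower members. The log2 fold change of Cox4i2 was -0.00929 without the filter, -0.0631 with the length and GC correction, -0.0634 with that and the block, and -0.036 to 0.0601 when single libraries were left out. That of Atp5g2 was -0.0952 to 0.00268 when single libraries were left out, above 0 without Irf1 siRNA replicate 2. Over all tested genes, higher calls went from 1522 to 980 without control siRNA replicate 2, to 959 without Irf1 siRNA replicate 3 and to 2382 with the correction and block together. No scaling moved the median of all genes by over 0.1 (log2). Members under 4 CPM (Ndufb2, Cox6a2, Cox6b2) and the 10 not tested are limited by depth. The causes of these shifts were not tested.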
